A study of Mus musculus with 16 samples.

Results

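Neutrophil granule genes were measured in mouse liver, a tissue in which neutrophils are a minor cell population. The 9 genes were Mpo, Elane and Prtn3 of the primary granules, Ltf, Ngp, Camp and Mmp8 of the secondary granules and their stage of maturation, and S100a8 and S100a9, which encode the calprotectin subunits. They were taken from a list fixed by name, out of 20284 named genes on the array, and all probes assigned to them were used, 10 in all because Camp had 2. The list was drawn up from the difference between miR-185-inh and ctrl-inh livers, so the size of that difference in these genes is given as a description, without a test.

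Livers were taken from 8 male ApoE KO mice on a high-fat diet that received lentivirus carrying antisense miR-185 (miR-185-inh). They were compared with livers of 8 male ApoE KO mice on the same diet that received ctrl-inh. The labels give an age of 8 weeks for both groups and a harvest after 8 w. The missing apolipoprotein E, a ligand for lipoprotein uptake, and the diet were shared by every liver, so no liver of wild-type or untreated mice enters here. The series asked which genes of bile acid metabolism respond to miR-185, and neutrophils were not part of that question. The labels name neither the promoter of the lentivirus nor the cells it reached. Mouse numbers are those of the sample titles. Each number was taken as 1 mouse. The labels leave unstated whether they are separate animals, and p-values here rest on the spread from sample to sample, which may be technical.

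Neutrophils pack their weapons in granules that are made one after another while the cell matures in the bone marrow. Primary, or azurophil, granule proteins such as myeloperoxidase and the serine proteases are transcribed in promyelocytes, and secondary, or specific, granule proteins such as lactotransferrin and cathelicidin in myelocytes and metamyelocytes. Mature neutrophils in blood and tissue keep the proteins but hold little of most granule mRNAs, whereas the mRNAs of calprotectin, a cytosolic calcium-binding complex, stay abundant in them.

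The genes lie in a few places of the genome. Prtn3 and Elane are neighbours on chromosome 10 with 0 annotated genes between them, and S100a8 and S100a9 are neighbours on chromosome 3, also with 0 between them. Ltf, Ngp, Camp and Mmp8 are all on chromosome 9. Between Ngp and Ltf lie 25 annotated genes, 20 of them protein-coding, and between Camp and Ngp 18, of which 8 are protein-coding. Mpo is on chromosome 11.

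Promoter windows are shown because the primary and the secondary granule genes varied together within the ctrl-inh mice, as described below. Each window holds 300 bases, 250 before and 50 after the start of the gene, from RefSeq on GRCm38.p6, and all 9 genes had one. Capitals mark GAGGAAGT, the core bound by ETS factors such as PU.1, or TTNNGCAA, a form of the motif of C/EBP factors, each on either strand. Both patterns were chosen with these sequences in view. The primary granule genes Mpo (chr11:87793534-87793833 on the plus strand), Elane (chr10:79886062-79886361 on the plus strand) and Prtn3 (chr10:79879417-79879716 on the plus strand) come first.
Mpo: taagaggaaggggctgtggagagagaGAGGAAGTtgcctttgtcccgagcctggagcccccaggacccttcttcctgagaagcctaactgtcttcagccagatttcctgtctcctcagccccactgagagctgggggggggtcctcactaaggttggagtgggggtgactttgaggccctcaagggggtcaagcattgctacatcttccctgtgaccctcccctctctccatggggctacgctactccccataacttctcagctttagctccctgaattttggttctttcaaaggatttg
Elane: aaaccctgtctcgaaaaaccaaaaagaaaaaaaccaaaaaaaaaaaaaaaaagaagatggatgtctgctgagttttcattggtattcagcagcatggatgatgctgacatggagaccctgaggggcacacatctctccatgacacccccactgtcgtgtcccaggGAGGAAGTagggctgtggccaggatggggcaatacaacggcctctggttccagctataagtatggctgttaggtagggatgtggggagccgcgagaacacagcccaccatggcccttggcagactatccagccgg
Prtn3: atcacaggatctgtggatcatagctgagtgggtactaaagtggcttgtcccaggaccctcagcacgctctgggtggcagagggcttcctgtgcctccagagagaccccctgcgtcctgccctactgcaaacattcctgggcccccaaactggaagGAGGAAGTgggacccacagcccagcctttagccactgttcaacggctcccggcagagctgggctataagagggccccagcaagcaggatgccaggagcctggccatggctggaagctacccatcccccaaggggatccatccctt

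The secondary granule genes Ltf (chr9:111019042-111019341 on the plus strand), Ngp (chr9:110419558-110419857 on the plus strand) and Mmp8 (chr9:7558179-7558478 on the plus strand) follow.
Ltf: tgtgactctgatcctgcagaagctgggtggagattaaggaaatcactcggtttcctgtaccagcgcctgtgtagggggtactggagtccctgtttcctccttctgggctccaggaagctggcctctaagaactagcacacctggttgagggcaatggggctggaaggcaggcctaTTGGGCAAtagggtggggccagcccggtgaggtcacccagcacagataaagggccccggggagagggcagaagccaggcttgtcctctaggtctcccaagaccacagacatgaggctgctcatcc
Ngp: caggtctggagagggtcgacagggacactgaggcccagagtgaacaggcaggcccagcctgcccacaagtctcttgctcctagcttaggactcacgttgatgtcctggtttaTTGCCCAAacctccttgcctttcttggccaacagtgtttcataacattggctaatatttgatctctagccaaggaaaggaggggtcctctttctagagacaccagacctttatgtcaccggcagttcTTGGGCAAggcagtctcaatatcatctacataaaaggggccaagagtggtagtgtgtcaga
Mmp8: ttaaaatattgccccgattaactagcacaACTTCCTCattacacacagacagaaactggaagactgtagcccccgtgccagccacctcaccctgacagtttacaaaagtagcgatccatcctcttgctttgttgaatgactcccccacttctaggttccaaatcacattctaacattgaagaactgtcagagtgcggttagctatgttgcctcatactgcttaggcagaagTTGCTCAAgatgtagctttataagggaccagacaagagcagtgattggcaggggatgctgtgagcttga

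GAGGAAGT was found in all 3 primary granule genes on the coding strand, with its first base at -85 in Elane, -95 in Prtn3 and -224 in Mpo relative to the start. On the other strand it was found in Mmp8 and S100a8, where it reads ACTTCCTC. That is 5 of the 9 genes, against 3.2% of all RefSeq promoter windows (1052 of 32851). TTNNGCAA was found in 4 of the 9, Ltf, Ngp with 2 copies, Mmp8 and S100a9, against 10.8% of all windows (3547 of 32851), and the Camp window held neither pattern. Since both patterns were chosen with these sequences in view, nothing is read from these shares. A match is only a run of letters in this window, and no match says nothing about the factor. Whether the patterns bear on how the genes varied together was not tested.

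Each liver was measured on 1 array of 59305 non-control spots, of which 58.7% to 74.8% were well above background. Any 2 arrays correlated across features with r between 0.984 and 0.996. All miR-185-inh arrays were on slide 2 and read in scan 2, and all ctrl-inh arrays on slide 1 in scan 1. For every group difference below, treatment, slide and scan therefore cannot be told apart. Hepatocyte markers were bright in both groups, with Alb at a mean log2 level of 6.16 in miR-185-inh and 6.17 in ctrl-inh livers. All levels are log2 of the processed intensity relative to the 75th percentile of the array, so they compare mice for 1 probe and not 1 gene with another. The number of arrays limits the precision.

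All 9 genes had a lower mean in miR-185-inh livers, by 1.31-fold to 3.92-fold, as did 58% of all features by any amount. The 4 secondary granule genes had a median log2 difference of -1.59, the 3 primary granule genes -1.21 and the calprotectin pair -0.84, beside a median of -0.03 over all 25800 features tested. The widest of these differences were in Ltf, Camp and Mpo, which encode lactotransferrin, cathelicidin and myeloperoxidase. In whole liver, fewer cells of a type and less RNA per cell cannot be told apart.

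**Figure D1:**
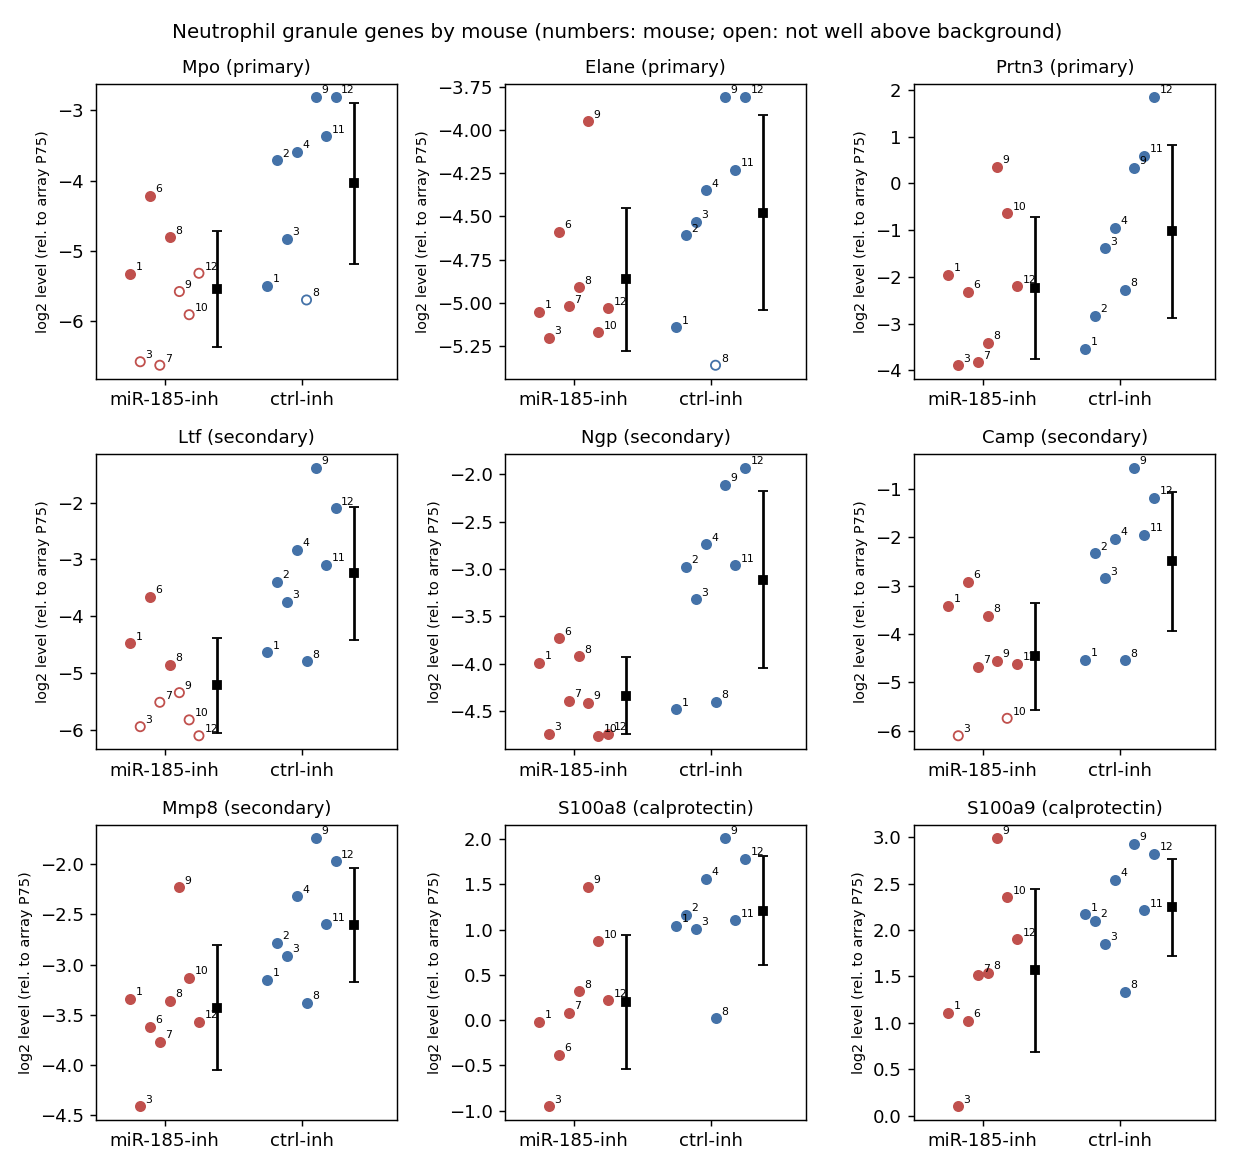
Log2 level of each granule gene (y axis, relative to the 75th percentile of the array) in the 8 miR-185-inh and 8 ctrl-inh mice, with the mouse number beside each point, open points where the spot was not well above background, and squares with bars for the mean and SD. The means are lower in miR-185-inh for all 9 genes, every panel shows overlapping values, and ctrl-inh mice 1 and 8 lie low within their group in most panels.

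Myeloperoxidase forms hypochlorous acid in the primary granule, and its gene Mpo had log2 levels with a lowest, median and highest value of -6.63, -5.45 and -4.22 in miR-185-inh livers, against -5.70, -3.65 and -2.81 in ctrl-inh livers. The difference was -1.51 (SE 0.50, 2.84-fold lower, n = 8 each). Every miR-185-inh mouse lay below the ctrl-inh mean, but ctrl-inh mice 1, 3 and 8 lay inside the miR-185-inh range. The Mpo spot was well above background in 3 miR-185-inh and 7 ctrl-inh mice.

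Neutrophil elastase, the serine protease encoded by Elane, differed least. Its lowest, median and highest log2 levels were -5.20, -5.02 and -3.95 in miR-185-inh livers and -5.36, -4.44 and -3.81 in ctrl-inh livers, a difference of -0.39 (SE 0.25, 1.31-fold lower). The lowest of all 16 livers was here a ctrl-inh one, mouse 8. Elane was dim in both groups, with processed intensities of 82 to 178 in miR-185-inh and 74 to 239 in ctrl-inh. Its spot was well above background in 8 miR-185-inh and 7 ctrl-inh mice. Prtn3, the gene of proteinase 3 beside Elane on chromosome 10, had the widest spread of the 9 genes in both groups. Its levels had a lowest, median and highest value of -3.89, -2.26 and 0.36 in miR-185-inh livers and -3.54, -1.17 and 1.86 in ctrl-inh livers, a difference of -1.21 (SE 0.85, 2.32-fold lower). The groups overlapped over most of their range, and miR-185-inh mice 9 and 10 exceeded the mean of ctrl-inh. Without ctrl-inh mouse 12, the highest, the Prtn3 difference was -0.80.

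Among the secondary granule genes, Ltf, whose product lactotransferrin binds iron, was near background in most miR-185-inh livers. Its lowest, median and highest log2 levels were -6.11, -5.43 and -3.66 in miR-185-inh livers and -4.80, -3.24 and -1.38 in ctrl-inh livers, a difference of -1.97 (SE 0.51, 3.92-fold lower). Below the lowest ctrl-inh mouse lay 6 of the 8 miR-185-inh mice, and 5 ctrl-inh mice lay above the highest miR-185-inh mouse, number 6. The spot was well above background in 3 miR-185-inh and all 8 ctrl-inh mice, so the fold is set against a group mostly at background signal, and with normexp the Ltf difference was -1.23.

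Camp encodes cathelicidin, the precursor of an antimicrobial peptide. On the brighter of its probes the lowest, median and highest log2 levels were -6.10, -4.58 and -2.92 in miR-185-inh livers and -4.54, -2.18 and -0.56 in ctrl-inh livers, a difference of -1.96 (SE 0.64, 3.89-fold lower). The other probe differed by -1.54 (SE 0.52, 2.91-fold lower). On both probes 6 of 8 ctrl-inh mice exceeded every miR-185-inh mouse, and ctrl-inh mice 1 and 8 did not.

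Ngp, the neutrophilic granule protein and a relative of cathelicidin, was well above background in all 16 livers. In miR-185-inh its processed intensities were low, from 112 to 236. Its lowest, median and highest log2 levels were -4.76, -4.40 and -3.73 in miR-185-inh livers and -4.48, -2.97 and -1.93 in ctrl-inh livers, a difference of -1.22 (SE 0.36, 2.33-fold lower). The miR-185-inh mice lay close together, and ctrl-inh mice 1 and 8 were again among them.

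Mmp8, neutrophil collagenase, was also well above background in every liver. Its levels had a lowest, median and highest value of -4.41, -3.47 and -2.23 in miR-185-inh livers and -3.38, -2.69 and -1.74 in ctrl-inh livers, a difference of -0.82 (SE 0.30, 1.77-fold lower). Unlike for Ltf, Ngp and Camp, the highest miR-185-inh mouse was number 9, and it exceeded 6 of the 8 ctrl-inh mice.

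The calprotectin genes were well above background in every liver. S100a8 had a lowest, median and highest log2 level of -0.95, 0.15 and 1.47 in miR-185-inh livers and 0.02, 1.13 and 2.01 in ctrl-inh livers, a difference of -1.01 (SE 0.34, 2.01-fold lower). For S100a9 the lowest, median and highest values were 0.10, 1.53 and 2.99 in miR-185-inh livers and 1.33, 2.19 and 2.93 in ctrl-inh livers, a difference of -0.68 (SE 0.36, 1.60-fold lower). The lowest S100a9 value was in miR-185-inh mouse 3 and the highest of all 16 livers in miR-185-inh mouse 9, so the miR-185-inh group spanned the whole ctrl-inh range. Without mouse 3 the S100a9 difference was -0.47, and without mouse 9 it was -0.88.

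Of the 9 genes, 2, Ltf and Ngp, were called lower by limma over all features, where 3.5% of features were called lower in miR-185-inh, 1.24% higher and 4.74% in either direction. With 1 mouse left out the count ran from 1 to 5 of the 9, 5 being without ctrl-inh mouse 8. Since the genes were picked from this contrast, nothing is read from these counts. None of the 9 had groups without overlap, as 0.655% of all features did with miR-185-inh below ctrl-inh. The secondary granule mean differed by 0.46 more than the primary granule mean on the log2 scale, a secondary minus primary value of -0.46. That value turned to 0.19 when probes had to be well above background on all 16 arrays, which left 5 of the 9 genes, with Prtn3 as the primary and Ngp and Mmp8 as the secondary members. With normexp in place of the scanner's background correction the Ngp difference was -0.82, the Mpo difference -0.82 and the Elane difference -0.13. After quantile normalization the Elane difference was -0.22.

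**Figure D2:**
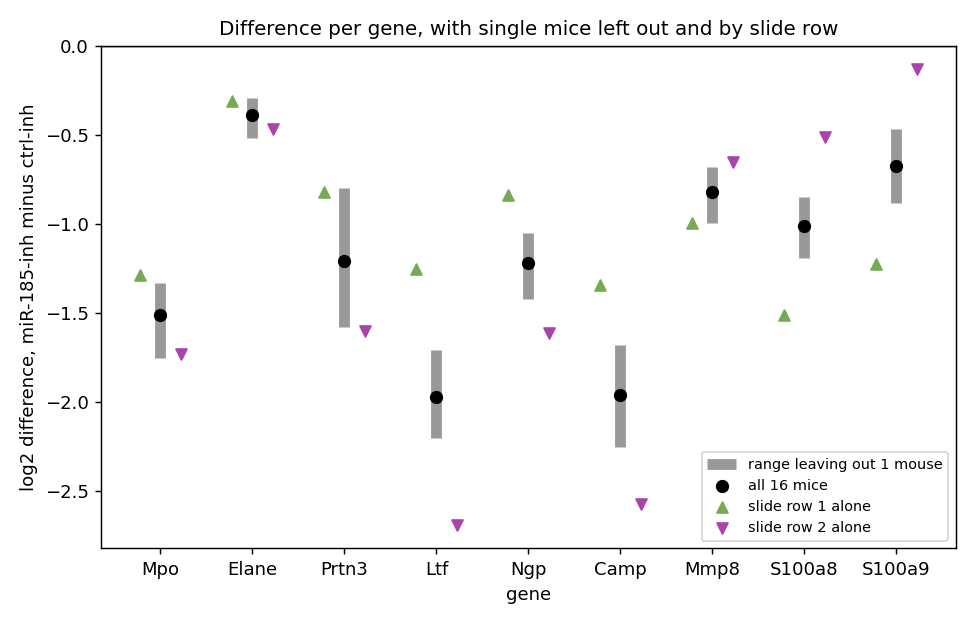
Log2 difference, miR-185-inh minus ctrl-inh (y axis), for each granule gene (x axis), with black points for all 16 mice, grey bars for the range when 1 mouse is left out, and triangles for slide row 1 alone and slide row 2 alone. Every value lies below 0, the Ltf row values are -1.25 and -2.69, and the S100a9 row values are -1.23 and -0.13.

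Variation between mice of 1 group was wide in these genes. In ctrl-inh livers the SD of the 9 genes ranged from 0.52 for S100a9 to 1.85 for Prtn3, beside a median SD of 0.19 over all features. In miR-185-inh livers it ranged from 0.41 for Ngp to 1.51 for Prtn3, beside a median of 0.21. These SDs stood at or above the 94.6th percentile of all features in ctrl-inh and the 86.5th in miR-185-inh. Since variation within ctrl-inh was part of why the genes were listed, nothing is read from these ranks. They are also set against features of any brightness, while several of the 9 were dim. The SD of Ngp was 2.28 times as large in ctrl-inh as in miR-185-inh livers, while for S100a9 the ratio was 0.594, the wider spread being in miR-185-inh.

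Within ctrl-inh the same mice were low or high for nearly all of the genes. Averaged over the 9 genes, ctrl-inh mice 8 and 1 were lowest, at -3.23 and -3.09, and mice 12 and 9 highest, at -0.82 and -0.79. The other 4 ctrl-inh mice lay between -2.30 and -1.59. Mice 1 and 8 shared the first column of their slide, in different rows. The miR-185-inh mice 1 and 8, in the same column of the other slide, averaged -2.94 and -3.00 over the 9 genes. Their group ran from -4.19 (mouse 3) to -2.36 (mouse 9). Their Ltf levels of -4.48 and -4.86 lay below mouse 6 and above the other 5 mice of their group. Their calprotectin means were 0.55 and 0.93, in a group range of -0.43 to 2.23. Whether slide column bears on these levels was not tested.

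In miR-185-inh livers the genes split. Mouse 6 had the highest Mpo, Ltf, Ngp and Camp, whereas mouse 9 had the highest Elane, Prtn3, Mmp8, S100a8 and S100a9. Mouse 3 was lowest for Prtn3, Camp, Mmp8, S100a8, S100a9 and Elane. In mouse 9 S100a8 stood at 1.47 and Ltf at -5.35, and in mouse 6 S100a8 stood at -0.38 and Ltf at -3.66.

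Pearson correlations over the 8 mice of a group describe this. They carry no p, and the points of a group share a slide and its scaling. Over the 36 pairs of genes the median r was 0.33 in miR-185-inh (range -0.21 to 0.98) and 0.91 in ctrl-inh (range 0.59 to 0.99). Ltf, Ngp and Camp kept together in both groups, with r of 0.95 in miR-185-inh and 0.96 in ctrl-inh between Ltf and Ngp, and S100a8 and S100a9 did so too, with r of 0.98 in each.

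What differed was the tie between these blocks. Between secondary granule and calprotectin genes the median r over 8 pairs was -0.08 in miR-185-inh and 0.87 in ctrl-inh livers. Ngp and S100a8, both well above background on all 16 arrays, had r of -0.14 in miR-185-inh and 0.85 in ctrl-inh. Mmp8, by stage a secondary granule gene, followed S100a8 in both groups, with r of 0.94 in miR-185-inh and 0.93 in ctrl-inh, but followed Ngp with r of 0.11 in miR-185-inh and 0.94 in ctrl-inh. In miR-185-inh Prtn3 also followed S100a8 (r of 0.81) rather than Ngp (-0.13), and Mpo followed Ngp (0.73) rather than S100a8 (0.07). Ngp itself and the genes that kept with it were mostly dim in miR-185-inh. The median processed intensity there was 146 for Ngp, 132 for the brighter Camp probe and 3671 for S100a8. Mpo and Ltf were well above background in 3 of 8 miR-185-inh mice and Camp in 6. Mmp8, Prtn3, S100a8 and S100a9 were so in all 8. The part of dim signal in these correlations was not tested.

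Between primary and secondary granule genes the median r over 12 pairs was 0.33 in miR-185-inh and 0.95 in ctrl-inh. Mouse 9 decided the first of these: without it the miR-185-inh median was 0.73, and with any other miR-185-inh mouse left out it lay between 0.22 and 0.44. Single mice also moved the other values. With 1 miR-185-inh mouse left out, r between Ngp and S100a8 ran from -0.55 without mouse 3 to 0.07 without mouse 6, and with 1 ctrl-inh mouse left out from 0.81 to 0.98. Between Mmp8 and S100a8 it ran from 0.88 to 0.96 in miR-185-inh and from 0.90 to 0.96 in ctrl-inh. The difference between the groups in these correlations was not tested.

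**Figure D3:**
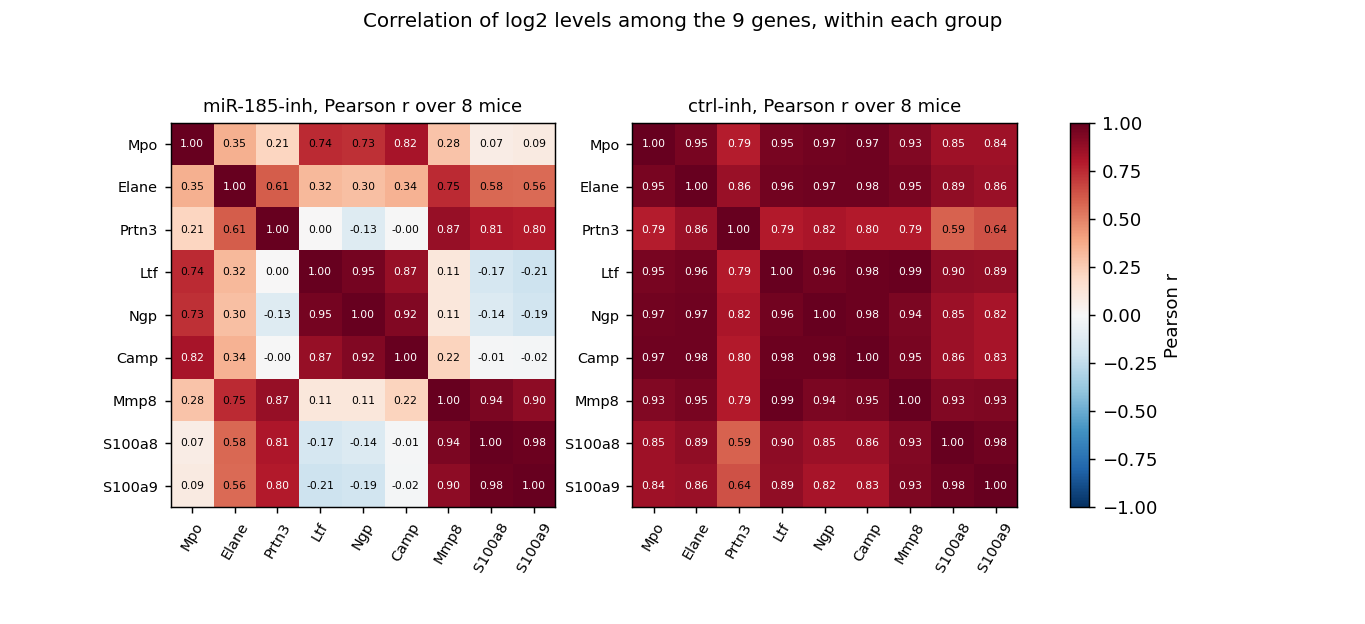
Pearson r between the log2 levels of each pair of granule genes over the 8 mice of miR-185-inh (left) and of ctrl-inh (right), coloured on a scale of -1 to 1. Nearly the whole ctrl-inh matrix is deep red, whereas in miR-185-inh Mpo, Ltf, Ngp and Camp form a block apart from Prtn3, Mmp8, S100a8 and S100a9. Of the first block, Mpo and Ltf were well above background in only 3 of the 8 miR-185-inh mice.

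**Figure D4:**
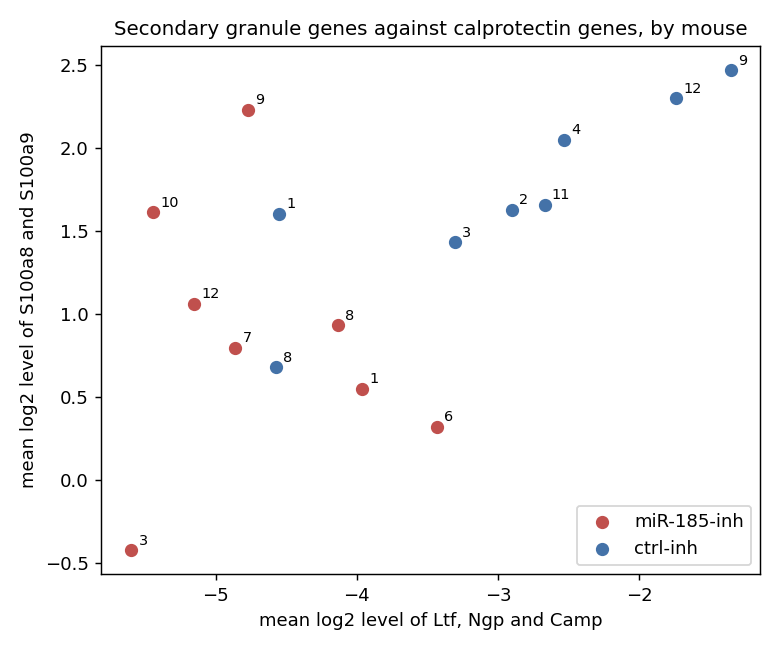
Mean log2 level of S100a8 and S100a9 (y axis) against that of Ltf, Ngp and Camp (x axis), 1 numbered point per mouse. The ctrl-inh mice mostly rise from mouse 8 to mouse 9, with mouse 1 close to mouse 8 on the x axis but higher on the y axis. The miR-185-inh mice lie to the left of the ctrl-inh mice other than 1 and 8. On the x axis ctrl-inh mice 1 (-4.55) and 8 (-4.58) lie within the miR-185-inh range of -5.60 (mouse 3) to -3.43 (mouse 6). The miR-185-inh calprotectin means lie between -0.43 (mouse 3) and 2.23 (mouse 9).

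Slide rows gave a further contrast, into which the group difference does not enter. Variation within ctrl-inh was part of why these genes were listed, so values that use the ctrl-inh rows are given as a description. The 8 arrays of a slide lay in 2 rows, and row 2 was set against row 1 within each group by limma. Within ctrl-inh 845 features (3.28%) were called and 0 of the 9 genes, from which nothing is read. Prtn3 had the largest ctrl-inh row difference of the 9, 2.31 (SE 0.91), and the others ran from 0.04 for S100a8 to 0.88 for Camp. Within miR-185-inh no feature passed (0 calls by limma, 4361 features with unadjusted p below 0.05). Of the 9 genes S100a9 came nearest with a row difference of 1.26 (SE 0.37, limma adjusted p = 0.146), followed by S100a8 with 1.04 (adjusted p = 0.197).

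The fit of whether the group difference itself differed between rows called 97 features (0.376%) and 0 of the 9 genes. For Ltf the difference was -1.25 in row 1 and -2.69 in row 2. S100a9 differed by -1.23 between groups in row 1 and by -0.13 in row 2. The secondary genes Ltf, Ngp and Camp were further apart between groups in row 2, and the calprotectin genes in row 1.

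Other genes of the same maturation stages were measured as well. Of 9 further promyelocyte genes 5 could be tested and none passed the limma threshold. Ctsg, which encodes cathepsin G of the primary granule, had log2 levels with a median of -5.02 in miR-185-inh and -3.44 in ctrl-inh livers, a difference of -1.32 (limma adjusted p = 0.0708), and r with the mean of Ltf, Ngp and Camp was 0.55 in miR-185-inh and 0.97 in ctrl-inh. Its adjusted p was 0.0475 without ctrl-inh mouse 1 and 0.0425 without miR-185-inh mouse 9. Gfi1 (-0.40, limma adjusted p = 0.112) and Cebpa (0.24, 0.238), which encode transcription factors of granulocyte development, and Cst7 (-0.48, 0.447), a cystatin, had the next smallest p. Gfi1 passed with array weights (adjusted p = 0.0280) and without miR-185-inh mouse 10 (0.0463). The median of the 5 was -0.40, Cebpa included. Cebpa had mean log2 levels of 2.9 in miR-185-inh and 2.7 in ctrl-inh livers. Whether a probe this bright reads promyelocytes in liver was not tested.

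Of 14 further genes of the secondary granule stage 9 could be tested, 8 of them had a difference below 0, none passed, and the median was -0.05. Lcn2, lipocalin 2, which hepatocytes also make in the acute phase, differed by -0.95 (limma adjusted p = 0.161). Its adjusted p was 0.0240 without miR-185-inh mouse 9, in which Lcn2 stood at 5.20, the rest of that group lying between 2.19 and 3.41. Chil3, a chitinase-like protein also made by macrophages, differed by -0.98 (adjusted p = 0.227), Lyz2, the lysozyme of myeloid cells, by -0.39 (0.495) and Anxa1, annexin A1, by -0.11 (0.695), all by limma. Ly6g and Cd177, surface markers of mouse neutrophils, were among the 5 genes not tested.

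Of the genes of mature neutrophils, 20 of 23 could be tested and 2 were called lower, where 3.5% of all features were. Mrgpra2a, a receptor gene of the Mas-related family, had a log2 difference of -1.61 (limma adjusted p = 0.0290) and Stfa2l1, of the stefin A cysteine protease inhibitors, one of -1.09 (limma adjusted p = 0.0357). Mrgpra2a was well above background in 1 miR-185-inh and 7 ctrl-inh mice and Stfa2l1 in 2 and 7. Both thus passed the filter on dim probes mainly through ctrl-inh and their differences are against background signal, and nothing further is read from the calls. Stefin A genes are near-identical copies that a probe may not tell apart. With normexp Mrgpra2a differed by -0.784, and Stfa2l1 by -0.346 with its call ended (limma adjusted p = 0.15). Both calls ended after quantile normalization (adjusted p = 0.0670 for Mrgpra2a and 0.0922 for Stfa2l1), and with 1 mouse left out they ended in 5 and 12 of 16 fits. Asprv1, an aspartic protease, differed by -0.63 (adjusted p = 0.0793), and Cxcr2, the chemokine receptor that draws neutrophils into tissue, by -0.44 (0.0955). Leaving out ctrl-inh mouse 8 gave Asprv1 an adjusted p of 0.0284, and leaving out miR-185-inh mouse 9 gave Cxcr2 one of 0.0462. In all, 18 of the 20 were below 0, with a median of -0.32. The list includes Itgam, Wfdc21, Csf3r and Trem1, with mean log2 levels of 5.57, 5.22, 4.35 and 3.93 in ctrl-inh livers. Whether probes this bright read neutrophils was not tested.

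The mature genes were set against Ltf, Ngp and Camp alone, not against the block of Mmp8, Prtn3 and calprotectin. Their median r with the mean of Ltf, Ngp and Camp was -0.11 in miR-185-inh and 0.15 in ctrl-inh, beside 0.02 in each group over all features. Values of r above 0.5 were reached by 1 of the 20 in miR-185-inh and 4 in ctrl-inh, those in ctrl-inh including Cxcr2 (0.89) and Retnlg (0.79), a secreted protein of neutrophils. Over all features 5.44% passed that value in miR-185-inh and 13.7% in ctrl-inh.

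**Figure D5:**
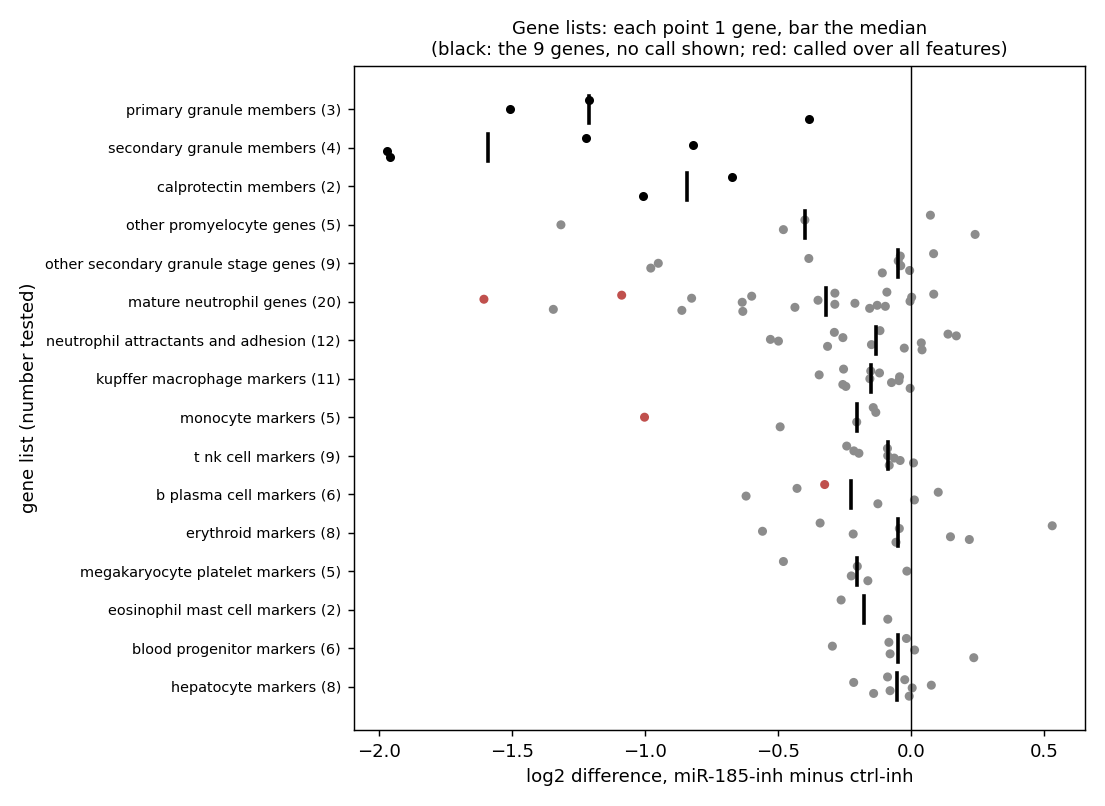
Log2 difference, miR-185-inh minus ctrl-inh (x axis), of each tested gene in the granule classes and in the other gene lists (y axis, number tested in brackets), with a bar at the median of each list, black points for the 9 granule genes and red points for other genes called by limma. The granule classes lie furthest left, with medians of -1.59 for secondary and -1.21 for primary members, and the hepatocyte markers sit at -0.05.

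Signals that draw neutrophils into the liver did not pass. Of 16 attractants and adhesion genes 12 could be tested, 8 were below 0, and the median was -0.13. The smallest p belonged to Csf3, the growth factor of granulocytes (-0.32, limma adjusted p = 0.0897), and Icam1, the endothelial adhesion molecule (-0.26, 0.172), followed by the chemokines Cxcl2 (-0.50, 0.351) and Cxcl5 (-0.53, 0.375). The median r of the 12 with the mean of Ltf, Ngp and Camp was -0.06 in miR-185-inh and -0.39 in ctrl-inh.

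Markers of other cells were followed beside the granule genes. All 11 Kupffer cell and macrophage markers tested were below 0, none passed, and the median was -0.15, with Cd5l at -0.05 and Clec4f at -0.16. The summed linear level of that list ran from 70.0 to 122 in miR-185-inh and from 89.4 to 129 in ctrl-inh mice. Of 5 monocyte markers 1 was called lower, where 3.5% of all features were. It was F13a1, coagulation factor XIII A, with a mean of -3.64 in miR-185-inh, against -2.64 in ctrl-inh (limma adjusted p = 0.0441). Its r with the mean of Ltf, Ngp and Camp was 0.01 in miR-185-inh and 0.83 in ctrl-inh. The F13a1 call ended after quantile normalization (adjusted p = 0.0705) and in 12 of the 16 fits that left out 1 mouse. All 5 monocyte markers were below 0, with a median of -0.21. The part of these cells in the granule gene result was not tested.

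The remaining markers were of lymphoid, erythroid and progenitor cells. None of 9 T and NK cell markers passed, with a median of -0.09. Of 6 B cell and plasma cell markers 1 was called lower, where 3.5% of all features were. It was Pax5, the B cell transcription factor, lower by 0.33 (limma adjusted p = 0.0291). The list median was -0.23. The Pax5 call ended after quantile normalization (adjusted p = 0.0872), with trend and robust eBayes (0.0531) and in 5 of 16 fits that left out 1 mouse. None of 8 erythroid markers (median -0.05), 5 platelet markers (-0.20), 2 eosinophil and mast cell markers (-0.18) or 6 progenitor markers (-0.05) passed. The 6 progenitor markers ran from -0.30 for Mecom to 0.23 for Cd34, with Kit, Flt3 and Spi1 at 0.01, -0.08 and -0.02. Of the 8 eosinophil and mast cell markers 6, Epx and Prg2 among them, could not be tested. Among mitotic genes 2 of 7 fell, Ccnb1 by 0.55 (limma adjusted p = 0.0129) and Plk1 by 0.53 (0.0290), where 3.5% of all features were called lower. Both calls ended with normexp (adjusted p = 0.0700 for Ccnb1 and 0.0892 for Plk1). The Ccnb1 call also ended with averaged probes (0.0901), and the Plk1 call after quantile normalization (0.0936) and in 6 of 16 fits that left out 1 mouse.

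The genes most like the mean of Ltf, Ngp and Camp were sought over all 16 arrays after subtracting group means. Among 14504 named features with values on every array, 3 had r above 0.8, Rarres1 (0.86), Acvr2b (0.85) and Kctd15 (0.82), with Cobl, Pros1, Fancm, Ctsg, Vps13c, Ttc39a and Palmd next. Ctsg (0.79) was the 1 gene of neutrophil granules among these 10. Of the 10, Ctsg and Ttc39a differed between groups by more than 0.2, at -1.32 and -0.86, neither passing the limma threshold (adjusted p = 0.0708 and 0.167).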

How the data were processed

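Per the file headers, the authors' scanner output is the processed intensity of each spot after background subtraction and detrending by version 11.5.1.1 of Feature Extraction. Version 9.1 of Agilent Feature Extraction is given in the submitters' processing notes. The authors' deposited value table is on a log2 scale and equals the log2 processed intensity minus 1 constant per array. Cy3-labelled cRNA was made from 0.5 ug of RNA, per the labels.

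Here the log2 processed intensity of non-control spots was scaled by subtracting each array's 75th percentile. Outlier spots were left out, spots of 1 probe averaged, probes required to be well above background on 8 or more of the 16 arrays with values on 10 or more, and a gene represented by its brightest probe. Accessions were named through the RefSeq table of GRCm38 (26762 of 55681 probes, 20284 symbols); the array grid is on mm9, so no coordinates were taken from it, and promoter windows carry RefSeq's own. This left 25800 features, 15256 of them named.

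Groups follow the treatment label. limma 3.58.1 in R 4.3.3 (lmFit, eBayes) compared miR-185-inh with ctrl-inh, and in a fit of treatment by slide row compared the rows and tested the difference of the row contrasts, two-sided, Benjamini-Hochberg adjusted over all features, threshold 0.05. On simulated data with 25800 features the fit recovered 60 of 100 1.5-fold changes and 89 of 100 2-fold changes between groups with 7 false calls, and 97 of 100 changed 4-fold between rows with 5 false calls.

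The members and gene lists were chosen with earlier results of these data known. Named are the 9 genes and, of each other neutrophil and attractant list, those called, or the smallest p up to 4. Of other lists those called and the brightest 2 are named. The 10 genes most correlated with the mean of Ltf, Ngp and Camp, without clone and predicted-gene symbols, are named as well. Retnlg, the bright probes of Itgam, Wfdc21, Csf3r and Trem1, the progenitor markers Kit, Flt3, Spi1 and Mecom and untested markers are named beyond this rule. They were added after their values were seen. Alternatives were normexp (offset 50, on the median spot signal), quantile normalization, the percentile taken over detected probes, the authors' values, looser and stricter dim-probe filters, averaged probes, trend and robust eBayes, array weights, slide row and column as covariates, a replicate block over mouse numbers, each row alone, and each mouse left out.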

Additional observations from a re-analysis of the deposited data

Results flagged for a closer look

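Among 49 genes named in the text, read in both groups as 98 sets of 8 mice, 7 sets held 1 mouse far from its neighbours. Chance gives such a mouse in about 1 of 20 sets, and none of the 18 sets of the 9 granule genes held one. In miR-185-inh mouse 9 Lcn2 stood at 5.20, with the next mouse at 3.41, and Icam1 at -0.04, with the next at -0.46; the same mouse had the highest S100a8 and S100a9. In miR-185-inh mouse 10 Cst7 stood at -2.85, next to -4.75, and Nkg7, a gene of cytotoxic lymphocytes, at 1.71, next to -0.05. In ctrl-inh mouse 8, one of the mice with low granule genes, the mitotic genes Plk1 and Mki67 were lowest, at -3.82 and -2.54, next to -3.29 and -1.57. In ctrl-inh mouse 12 Serpina1a, a secreted protein of hepatocytes, was highest at 6.59, next to 6.28.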

How the results depend on the processing

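The median differences of the 9 genes and of each granule class moved by less than the spread between mice under all alternatives, with 1 exception given in the results, the secondary minus primary value (0.189 with probes well above background on all 16 arrays). The median SD within miR-185-inh was 0.481 after normexp, against 0.826. The number of features called between groups, 1223, was 1853 with the percentile over detected probes, 0 in slide row 1, 474 in slide row 2 and 749 to 1587 with 1 mouse left out (749 without miR-185-inh mouse 7, 788 without mouse 6, 790 without ctrl-inh mouse 12). With a replicate block over mouse numbers it was 0. For the 5 numbers found in both groups, same-numbered mice had correlations of deviations from -0.13 to 0.11, and 2 of 10 matched best with their own number. The labels state no pairing, and with so few shared numbers these values cannot settle whether the numbers pair the mice. The 2 other neutrophil genes called lower became 1 after normexp, 4 with array weights, 0 after quantile normalization, with the filter on all 16 arrays, with the replicate block and in either row alone, and 0 to 6 with 1 mouse left out, 6 being without miR-185-inh mouse 9. For the rows of ctrl-inh, 845 features became 1941 after normexp, 6112 with no filter on dim probes, 2923 with array weights and 133 to 991 with 1 mouse left out. For the rows of miR-185-inh 0 became up to 708, without mouse 7. The test of the difference between rows gave 43 after normexp, 200 after quantile normalization, 401 with the percentile over detected probes, 2366 with no filter, 42 with averaged probes, 329 with array weights and 5 to 453 with 1 mouse left out, against 97. The cause of these changes was not tested. Signs turned only for values near 0 or without a call. The ctrl-inh row value of S100a8, 0.0364, was -0.0531 after normexp, -0.00858 after quantile normalization, -0.0198 with the percentile over detected probes, -0.0379 with array weights and -0.222 to 0.438 with 1 mouse left out. With 1 mouse left out the ctrl-inh row value of S100a9 ran from -0.0423 to 0.492. In miR-185-inh the row value of Mpo ran from -0.0299 to 0.773, of Camp from -0.958 to 0.104 and of Elane from -0.0711 to 0.336. The difference between rows of Elane was 0.0162 with array weights and ran from -0.51 to 0.0073 with 1 mouse left out, and that of Mpo from -1.12 to 0.0414. In slide row 2 alone the group difference was -0.015 for Cebpa, 0.245 for Cst7, 0.296 for Lyz2, 0.237 for Anxa1, 0.226 for Cxcl2 and 0.031 for Cxcl5. Depth is not known for arrays, and Mpo and Ltf were not well above background in 5 of 8 miR-185-inh mice, which limits their differences.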

Other observations

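The brightest markers of the other cell lists, named for their signal and not for how they moved, did not pass the limma threshold. Among monocyte markers Ms4a4c differed by -0.13 and Plac8 by -0.14, though with its probes averaged Ms4a4c differed by -0.611. The brightest Ms4a4c probe had a mean log2 level of 6.34 in ctrl-inh livers, and whether it reads monocytes was not tested. Among T and NK cell markers Cd4 differed by -0.06 and Nkg7 by -0.24. Cd79b of B cells differed by 0.01 and Jchain, the joining chain of plasma cells, by -0.62 (limma adjusted p = 0.0748). The erythroid genes Hba-a1, whose alpha-globin copies are near-identical, and Alas2 differed by -0.22 and -0.06, the platelet genes Pf4 and Gp1bb by -0.20 and -0.16, and the eosinophil genes Prg3 and Siglecf by -0.09 and -0.26. The progenitor genes Meis1 and Cd34 differed by -0.08 and 0.23, the hepatocyte genes Alb and Serpina1a by -0.01 and -0.22, and the mitotic genes Mki67 and Ccna2 by -0.41 and -0.55.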
